A study of Mus musculus with 8 samples.

Results

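The genes described here are 9 members of the neuregulin and ErbB system, the ligands *Nrg1*, *Nrg2*, *Nrg4*, *Hbegf* and *Btc* and the receptors *Egfr*, *Erbb2*, *Erbb3* and *Erbb4*. They were taken by symbol from a table of 46040 genes, and each symbol matched 1 gene. RNA of the left ventricle (LV) of 8 male C57BL/6 mice aged 5 to 7 months was sequenced on day 14 of angiotensin II (angII) infusion at 0.1 mg/kg/h, which raises blood pressure and loads the LV. All 8 mice received angII, and the tissue came from mice that survived the infusion, so no untreated heart enters the values. The groups were 4 littermate controls and 4 VEGFR-1 TK-/- mice, whose *Flt1* allele, present in every cell, lacks the intracellular tyrosine kinase domain of VEGFR-1.

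ErbB receptors are receptor tyrosine kinases that pair with each other when a ligand of the epidermal growth factor (EGF) family binds. Neuregulins bind ErbB3 and ErbB4, heparin-binding EGF (HB-EGF, from *Hbegf*) and betacellulin (from *Btc*) bind EGFR and ErbB4, and ErbB2 binds no ligand of its own but is the favoured partner of the others. ErbB3 has a kinase domain with little activity and signals through its partners. In the heart, neuregulin-1 from endothelial and endocardial cells reaches ErbB4 and ErbB2 on cardiomyocytes, and this exchange is needed for trabeculation in the embryo and for tolerance of stress in the adult.

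The labels contradict each other on genotype, since in every library the title gives the opposite genotype from the tag and the library name. Here the tags and library names define the groups, called control-tagged and, for VEGFR-1 TK-/-, mutant-tagged, and every sign and direction below reverses if the titles are right. Counts on genes lay between 11449137 and 16239670 per library, and libraries of one group always differed beyond sampling noise (chi-square per degree of freedom of 6.77 or more). *Flt1* itself had 56.9 to 84.3 normalized CPM in the control-tagged and 144 to 169.6 in the mutant-tagged libraries, a count over the whole gene that does not separate the alleles. CPM is the count scaled to the size of the library, which was adjusted here by the TMM method. The library names speak of cardiomyocytes and the sample source of LV tissue. The summed level of 7 cardiomyocyte markers was 45724 to 74515 normalized CPM, which cannot tell LV tissue from isolated cardiomyocytes. Markers of other cells were read as well, 7 endothelial markers summing to 1221 to 1686 and 6 fibroblast markers to 567 to 1548 normalized CPM. Fat was nearly absent, since the 6 adipocyte markers together had at most 1.55 normalized CPM and *Plin1* and *Lep* had no read.

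Per exon length, *Hbegf* was the most abundant of the 9 genes and *Nrg1* by far the least. The mean level of *Hbegf* over all libraries was 6.20 ± 1.31 normalized CPM per kilobase of exon (SD, n = 8), and 40.3% of 13513 tested genes with a known length were higher. It exceeded the next gene, *Erbb2*, in 8 of 8 libraries, by 2.10-fold in the geometric mean (exact adjusted p = 0.0208). *Erbb2* had 2.91 ± 0.356 and *Erbb3* with 2.75 ± 0.154 on the same scale (SD, n = 8). These receptors did not differ beyond their spread, *Erbb2* being higher in 4 of 8 libraries (2-sided exact paired permutation test, adjusted p = 0.539 over 8 neighbouring pairs). *Egfr*, at 0.987 ± 0.209 normalized CPM per kilobase (SD, n = 8), was below *Erbb3* in every library, by 2.84-fold in the geometric mean (exact adjusted p = 0.0208).

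*Egfr* exceeded the next gene, *Nrg2*, in 7 of 8 libraries (2.34-fold, exact adjusted p = 0.0312), an order lost with the length of the longest transcript, where *Nrg4* followed *Egfr* and was not told apart from it (exact adjusted p = 0.241). *Nrg2* (0.482 ± 0.312), *Erbb4* (0.356 ± 0.0665), *Nrg4* (0.293 ± 0.172) and *Btc* (0.287 ± 0.0993, normalized CPM per kilobase, SD, n = 8) formed a low tier in which no neighbours in the order could be told apart (exact adjusted p from 0.4 to 0.539). *Nrg1* was at 0.0227 ± 0.0142 on this scale (SD, n = 8), 14.4-fold below *Btc* in the geometric mean and lower in 8 of 8 libraries (exact adjusted p = 0.0208). By that length in place of all exons, *Nrg4* moved from rank 7 to rank 5 at 0.849 normalized CPM per kilobase, and *Hbegf* and *Nrg1* kept ranks 1 and 9. Among the receptors, *Erbb4*, which together with *Erbb2* forms the neuregulin receptor of cardiomyocytes, thus had the lowest RNA level per length in this tissue.

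**Figure D1:**
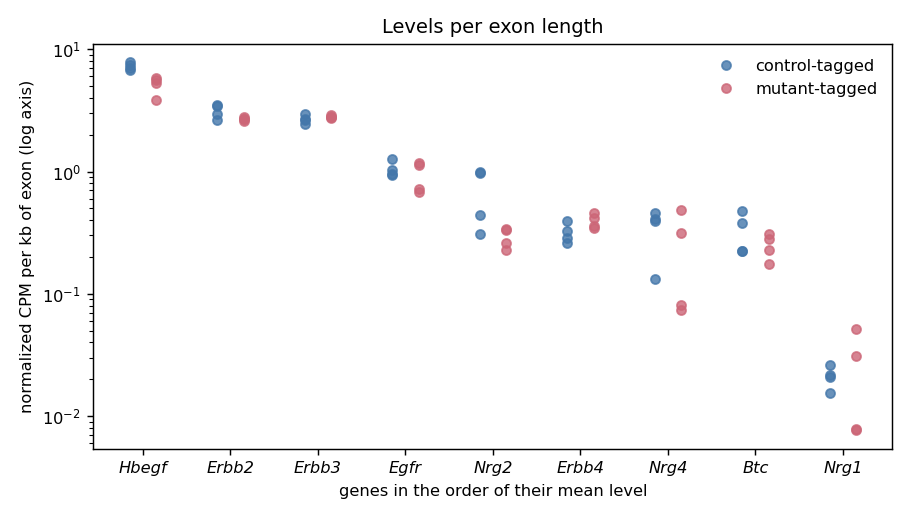
Levels per exon length of the 9 genes on a log axis (normalized CPM per kilobase of exon), with 1 point per library, control-tagged in blue and mutant-tagged in red. *Hbegf* stands above 3.8 in every library, *Erbb2* and *Erbb3* share a level near 2.8, and *Nrg1* stays below 0.052.

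None of the 8 genes that passed the filter on low counts was called between the groups by edgeR's quasi-likelihood test, the call being a false discovery rate (FDR) below 0.1 together with a change of 1.5-fold or more. Over all 13542 genes tested, 1 gene (0.00738%), *Flt1*, was called. The likelihood ratio test, which called 0.391% of all genes, and DESeq2 called 0 of the 8 as well. At an unadjusted p under 0.05, 2 of the 8 genes, *Hbegf* and *Nrg2*, were lower in the mutant-tagged libraries and 0 were higher, where 5.64% and 3.32% of all genes tested were, 8.96% in all. Of the 8 genes 6 had a negative log2 fold change, against 50.3% of all genes tested, and the median was −0.30, against 0.00 (−0.00119) over all genes.

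*Hbegf* (ENSMUSG00000024486), on the minus strand of chromosome 18 (36504927 to 36515805, GRCm38), encodes a membrane-bound growth factor that metalloproteases release. Normalized CPM was 32.6, 35.9, 34.2 and 37.7 in control-tagged replicates 1 to 4. It was 28.2, 18.6, 25.6 and 27.1 in mutant-tagged replicates 1 to 4. The groups did not overlap, all control-tagged libraries being higher, and mutant-tagged replicate 2 was the lowest of all. The means were 35.1 ± 2.23 and 24.9 ± 4.34 (SD, n = 4 per group, 2-sided exact permutation test, p = 0.0286, the smallest that 4 against 4 allows). Groups that did not overlap were seen in 4.98% of all genes tested, 2.53% in this direction and 2.46% in the other. The log2 fold change was −0.49 (SE 0.13, 95% interval −0.77 to −0.22), with an edgeR quasi-likelihood FDR = 0.442, and *Hbegf* ranked 58 of 13542 by unadjusted p. The FDR of the likelihood ratio test, 0.0921, was the smallest over the 16 alternatives, which reached 0.941, and the size of the change stayed under the fold threshold. Without mutant-tagged replicate 2 the log2 fold change was −0.38.

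Markers of several other cell types also had lower levels in the mutant-tagged libraries, though 0 of them were called by edgeR's quasi-likelihood test. The summed level of 7 endothelial markers was 1343 to 1686 normalized CPM in the control-tagged and 1221 to 1359 in the mutant-tagged libraries, with overlap, 6 of the 7 being lower in the latter and 3 at an unadjusted p under 0.05. The 4 endocardial markers summed to 124 to 169 against 94.7 to 113 normalized CPM, and the 7 leukocyte markers to 340 to 444 against 226 to 338, neither with overlap. Means in the control-tagged and mutant-tagged libraries were 81.1 and 52.9 normalized CPM for *Vwf* and 33.4 and 33.5 for *Nfatc1*. For *Npr3* they were 12.7 and 11.1 and for *Plvap* 11.2 and 8.35, all 4 being the endocardial markers. The 6 mural cell markers (smooth muscle and pericytes) summed to 1147 to 1652 against 781 to 1261 normalized CPM, with overlap. At an unadjusted p under 0.05, 1 endocardial, 2 leukocyte and 3 mural cell markers were lower. Of the leukocyte markers 6 of 7 had a negative log2 fold change, with *Lyz2* at means of 245 (control-tagged) and 195 (mutant-tagged) normalized CPM. The exception, *Cd3e*, was at 0.43 (SE 0.63) on 3 to 20 reads per library. All 6 fibroblast and all 5 red blood cell markers had negative log2 fold changes, 0 of them at an unadjusted p under 0.05, and their sums overlapped. Over all genes tested, 5.64% were lower at an unadjusted p under 0.05 and 50.3% had a negative log2 fold change. No marker of these 6 lists was at 0. The 7 cardiomyocyte markers went mostly the other way, with 2 negative log2 fold changes and a median of 0.16. At an unadjusted p under 0.05, 2 of them were higher, where 3.32% of all genes tested were. Of 7 Schwann cell markers tested, 2 were negative, the median was 0.20 and 1 was higher at that threshold. The sums of both lists overlapped. In bulk tissue, fewer cells of a type and less RNA per cell cannot be told apart. The part of any of these cell types in the *Hbegf* difference was not tested.

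*Nrg2* (ENSMUSG00000060275), a neuregulin best known from neurons, lies on the same chromosome from 36017652 to 36197380, 308 kb from *Hbegf*. It had 13 to 46 reads per control-tagged and 9 to 13 per mutant-tagged library. Normalized CPM was 0.973, 1.38, 3.09 and 3.04 in control-tagged replicates 1 to 4. The mutant-tagged replicates 1 to 4 had 0.813, 1.07, 0.711 and 1.04. Replicates 3 and 4 of the control-tagged group were high, whereas replicate 1 of that group fell among the mutant-tagged libraries. The means of 2.12 ± 1.10 and 0.906 ± 0.172 (SD, n = 4 per group) missed the threshold of the exact permutation test (p = 0.0857). The log2 fold change of −1.22 (SE 0.40, 95% interval −2.10 to −0.35) was the lowest of the 8 genes and had an edgeR quasi-likelihood FDR = 0.464. Its sign held under 16 of 16 alternatives (−1.46 to −0.98). The 3 genes tested between *Nrg2* and *Hbegf* on the chromosome, *Pfdn1*, *Pura* and *Cystm1*, had log2 fold changes of −0.14, 0.10 and 0.15 and were looked at after the values of their neighbours were seen.

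**Figure D2:**
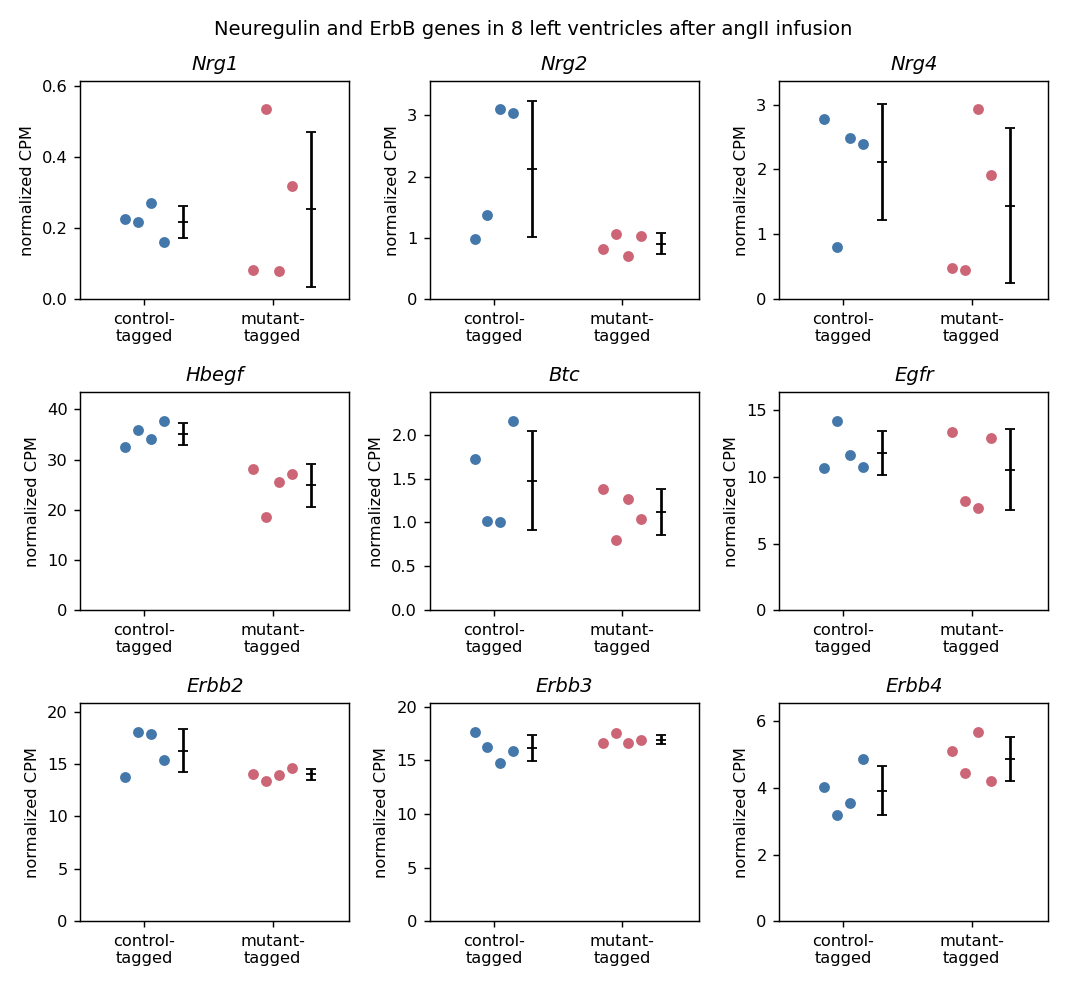
Normalized CPM of each of the 9 genes in the 4 control-tagged (blue) and 4 mutant-tagged (red) libraries, each panel from 0, with black bars for mean and SD and points in the order of replicate numbers. *Hbegf* separates the groups, with 32.6 or more against 28.2 or less, and the other 8 genes overlap.

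*Nrg4* (ENSMUSG00000032311, chromosome 9, 55220222 to 55326844) encodes a neuregulin that brown fat secretes and that binds ErbB4. Its normalized CPM was 2.77, 0.798, 2.49 and 2.40 in control-tagged replicates 1 to 4. In mutant-tagged replicates 1 to 4 it was 0.488, 0.444, 2.92 and 1.91. Both groups thus held libraries under 1 and libraries near or above 2, on 5 to 37 reads each. The log2 fold change of −0.53 (SE 0.54, 95% interval −1.72 to 0.66, edgeR FDR = 0.8) was smaller than the spread between libraries. It was −1.13 without mutant-tagged replicate 3, −0.80 without control-tagged replicate 2, and −0.24 and −0.25 without mutant-tagged replicates 1 and 2. *Nrg4* shares 368 exon bases, 6.06% of its exon length, with *Fbxo22* on the opposite strand, which had 499 to 654 reads per library and a log2 fold change of −0.04. Whether the counting used strand is not stated, so reads in the shared bases cannot be assigned with certainty.

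*Btc* (ENSMUSG00000082361, chromosome 5, 91357261 to 91402994) had 9 to 27 reads per library. Betacellulin RNA was at 1.72, 1.02, 1.01 and 2.16 normalized CPM in control-tagged replicates 1 to 4 and at 1.38, 0.799, 1.26 and 1.04 in mutant-tagged replicates 1 to 4. The groups overlapped, and the 2 highest values were control-tagged. The log2 fold change was −0.38 (SE 0.33, 95% interval −1.11 to 0.35, edgeR FDR = 0.763), and −0.14 without control-tagged replicate 4.

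*Nrg1* (ENSMUSG00000062991, chromosome 8, 31814551 to 32884029) was almost without reads in these LVs. Control-tagged replicates 1 to 4 had 3, 3, 4 and 2 reads and mutant-tagged replicates 1 to 4 had 1, 6, 1 and 4, or 12 reads in each group. The gene therefore missed the filter, which asks for 2 or more libraries with a CPM of 1 or more. Set against the library sizes, the ratio of mutant-tagged to control-tagged counts was 1.12, with an exact 95% interval from 0.459 to 2.72 that covers counting error only. A difference within these bounds was not detectable at this depth. The bounds leave out variation between libraries, so they are not a limit of detection. Without the filter on low counts, edgeR gave a log2 fold change of 0.17 (SE 0.69). The low level stood beside endothelial and endocardial markers that were well covered in every library.

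*Erbb2* (ENSMUSG00000062312) lies on chromosome 11 from 98412470 to 98437716 and was covered by 151 to 266 reads per library. Its normalized CPM was 13.8, 18.1, 17.9 and 15.4 in control-tagged replicates 1 to 4. mutant-tagged replicates 1 to 4 lay close together at 14.1, 13.4, 13.9 and 14.7. Control-tagged replicate 1 fell inside the range of the other group, whereas the remaining control-tagged libraries were above it. The log2 fold change of −0.22 (SE 0.12, 95% interval −0.47 to 0.04) had an edgeR quasi-likelihood FDR = 0.616 and an exact permutation p = 0.114. The SD of the control-tagged libraries was 12.8% of their mean and that of the mutant-tagged libraries 3.71%, the latter below the 7.65% that counting error alone gives at this depth.

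*Erbb3* (ENSMUSG00000018166, chromosome 10, 128567523 to 128589652), the receptor with the weak kinase, was the most even of the 9 genes. In control-tagged replicates 1 to 4 it had 17.7, 16.3, 14.8 and 15.9 normalized CPM. In the other group, replicates 1 to 4 had 16.7, 17.6, 16.6 and 16.9. The groups overlapped widely, and the log2 fold change was 0.07 (SE 0.10, edgeR FDR = 0.870). Its 95% interval, −0.15 to 0.29, and that of *Erbb2* excluded a change of 1.5-fold in either direction. *Erbb3* is a known gene of Schwann cells, and the 9 markers of these cells summed to 91.7 to 118 normalized CPM in the control-tagged and 80.1 to 126 in the mutant-tagged libraries, most of it *Pmp22* (725 to 1336 reads per library), with *Sox10* at 15 to 38 reads.

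*Erbb4* (ENSMUSG00000062209, chromosome 1, 68032186 to 69108059), the neuregulin receptor with an active kinase, had 44 to 72 reads per library. Normalized CPM was 4.04, 3.19, 3.56 and 4.88 in control-tagged replicates 1 to 4 and 5.12, 4.44, 5.69 and 4.22 in mutant-tagged replicates 1 to 4. The 2 highest values were mutant-tagged and the 3 lowest were control-tagged, with overlap between. The means were 3.92 ± 0.727 and 4.87 ± 0.667 (SD, n = 4 per group, exact permutation test, p = 0.114). *Erbb4* had the highest log2 fold change of the 8 genes, 0.32 (SE 0.19, 95% interval −0.10 to 0.73), with an edgeR quasi-likelihood FDR = 0.642. It was positive under 16 of 16 alternatives.

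*Egfr* (ENSMUSG00000020122, chromosome 11, 16752203 to 16918158), the receptor of EGF and HB-EGF, varied within the mutant-tagged group. Control-tagged replicates 1 to 4 had 10.7, 14.2, 11.6 and 10.7 normalized CPM. mutant-tagged replicates 1 to 4 had 13.4, 8.17, 7.66 and 12.9. In the latter group replicates 2 and 3 were lower than any other library, and replicates 1 and 4 exceeded 3 of the 4 control-tagged libraries. The log2 fold change of −0.16 (SE 0.20, 95% interval −0.59 to 0.26, edgeR FDR = 0.836) was within the spread between libraries, and it ranged from −0.30 to −0.04 with single libraries left out.

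**Figure D3:**
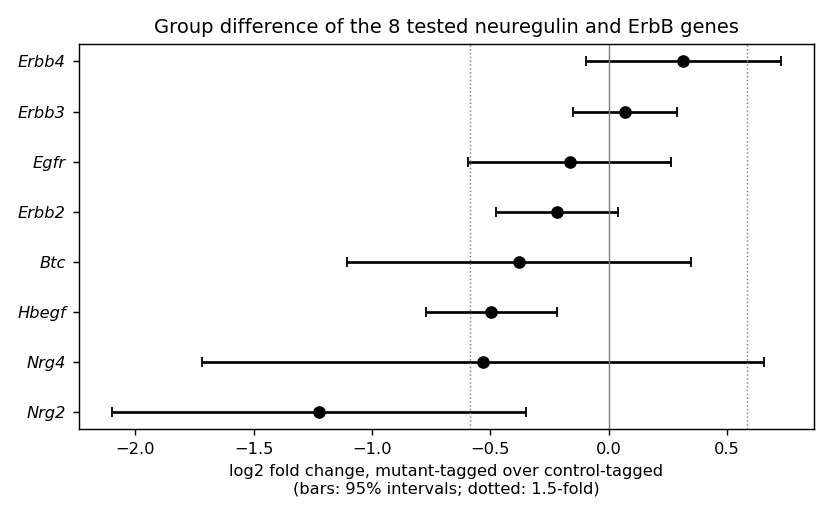
Log2 fold changes (mutant-tagged over control-tagged, edgeR) of the 8 tested genes with 95% intervals, a line at 0 and dotted lines at a change of 1.5-fold in either direction. The intervals of *Hbegf* and *Nrg2* exclude 0 before adjustment over all genes, those of the other 6 include it, and those of *Erbb2* and *Erbb3* stay between the dotted lines.

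The composition of the receptor pool was compared within libraries, where it does not depend on library scaling. Per exon length, *Erbb2* made up 43.5% ± 3.87 of the RNA of the 4 receptors in the control-tagged and 39.4% ± 1.03 in the mutant-tagged libraries, and *Erbb3* 37.6% ± 3.91 and 41.3% ± 2.45 (SD, n = 4 per group). *Egfr* took 14.5% ± 1.25 and 13.5% ± 3.35 and *Erbb4* 4.46% ± 1.01 and 5.79% ± 0.925 (SD, n = 4 per group). The groups overlapped for each receptor, with exact permutation p adjusted over the 4 shares from 0.190 to 0.486. The ratio of *Erbb4* to *Erbb2* normalized CPM was 0.293, 0.177, 0.199 and 0.318 in control-tagged replicates 1 to 4 and 0.364, 0.331, 0.409 and 0.288 in mutant-tagged replicates 1 to 4. In the latter group 3 of 4 libraries were above all control-tagged libraries, a difference of 0.53 on the log2 scale that did not pass the test (exact permutation p = 0.0857, adjusted p = 0.229 over 4 ratios). The ratio of *Erbb3* to *Erbb2* differed by 0.28 (adjusted exact p = 0.229), that of *Egfr* to *Erbb2* by 0.01 (adjusted exact p = 1.0) and that of *Nrg1* to *Erbb4* by −0.56 (adjusted exact p = 0.686), all on the log2 scale. With single libraries left out the last of these ran from −1.12, without mutant-tagged replicate 2, to −0.08, without mutant-tagged replicate 3.

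Across the 8 libraries, 14 relations of these genes with cell type markers and with each other were computed on log2 levels. *Egfr* followed the summed level of 6 fibroblast markers (*Pdgfra*, *Col1a1*, *Col1a2*, *Tcf21*, *Dcn* and *Lum*). Most of that sum was *Col1a1*, *Col1a2* and *Dcn*, with control-tagged means of 417, 336 and 367 normalized CPM. *Pdgfra* was at 35.4 and *Tcf21* at 5.93 normalized CPM in that group. Pearson's r was 0.911 (exact permutation p = 0.000546, adjusted p = 0.00764) and Spearman's rho was 0.929 (exact permutation p = 0.00223, adjusted p = 0.0312). Without the libraries farthest from the median of the markers, control-tagged replicate 2 and mutant-tagged replicate 3, r was 0.860. After subtraction of the group means r was 0.901, so the relation did not rest on the difference between the groups. Fibroblast markers summed to 883 and 567 normalized CPM in mutant-tagged replicates 2 and 3, the libraries with the lowest *Egfr*, and to at least 1055 in the others.

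*Hbegf* had r = 0.839 with the endothelial markers (exact permutation p = 0.00491, adjusted p = 0.0344), rho = 0.833 (adjusted exact p = 0.102) and r = 0.880 without control-tagged replicates 2 and 3, the libraries farthest from the median. This pooled value carries the group difference of *Hbegf*, since after subtraction of the group means r was 0.539. Groups of 4 are too small for a test of their own. Each gene was set against a single marker list or none, so these relations do not single out a cell type. A relation of *Hbegf* with the mural cell, endocardial or leukocyte markers, also lower in the mutant-tagged libraries, was not tested. *Erbb2* and *Erbb3* had r = −0.796 (exact permutation p = 0.0156, adjusted p = 0.073), rho = −0.810 (adjusted exact p = 0.102), r = −0.641 without control-tagged replicates 1 and 3 and r = −0.741 after subtraction of the group means, a relation that misses the threshold after adjustment. *Erbb2* and *Erbb4* had r = −0.741 and rho = −0.500 (adjusted exact p = 0.136 and 0.378). *Erbb4* and the cardiomyocyte markers had r = 0.637 (adjusted exact p = 0.239), which turned to −0.406 without control-tagged replicate 2 and mutant-tagged replicate 3. *Erbb3* showed no relation to the Schwann cell markers (r = −0.102, adjusted exact p = 0.883), whose summed level was mostly *Pmp22*. The remaining 8 relations had adjusted exact p of at least 0.202 in both measures. A relation of *Nrg4* with adipocyte markers could not be computed, because 1 library had no read of them. All levels of one library share its scaling.

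**Figure D4:**
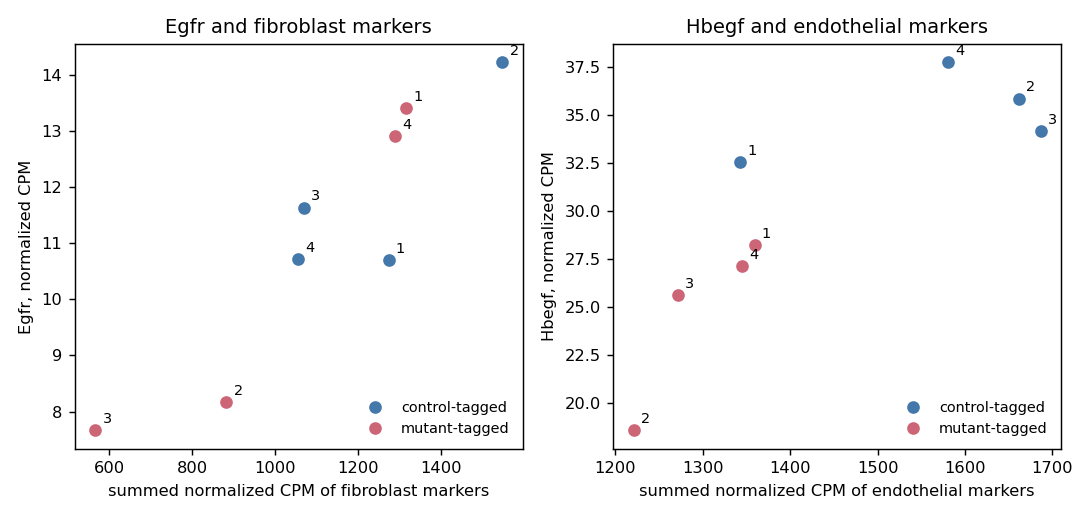
*Egfr* against the summed level of 6 fibroblast markers (left) and *Hbegf* against that of 7 endothelial markers (right), in normalized CPM, with 1 numbered point per replicate, control-tagged in blue and mutant-tagged in red. On the left both groups lie along one trend, from mutant-tagged replicate 3 (567 and 7.66) to control-tagged replicate 2 (1548 and 14.2). On the right the groups stand apart in *Hbegf* and overlap in the endothelial markers.

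Genes around these receptors were read from lists of ligands, genes of ligand shedding, signal transducers, genes linked to receptor restraint and response genes. By edgeR's quasi-likelihood test 0 genes of these lists were called, with a lowest FDR of 0.468. Of 6 further ligands of the EGF family, 2 passed the filter on low counts. *Egf* had a log2 fold change of 0.17 (SE 0.21) and *Tgfa*, another ligand of EGFR, −0.36 (SE 0.29), neither at an unadjusted p under 0.05. *Areg* had at most 1, *Epgn* 4 and *Ereg* 10 reads in any library, and *Nrg3* had no read.

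Of 10 shedding genes tested (11 listed, 1 not found by symbol), 9 had a negative log2 fold change, 4 of them at an unadjusted p under 0.05, and the median was −0.21. Over all genes tested these shares were 50.3% and 5.64%, and the median was −0.00119. The shedding gene with a positive log2 fold change was *Timp3*, a metalloprotease inhibitor (0.11, SE 0.18). *Adam17*, the protease that releases HB-EGF and other ligands, had 57.5, 62.4, 58.4 and 53.7 normalized CPM in control-tagged replicates 1 to 4 and 50.1, 43.1, 50.6 and 51.7 in mutant-tagged replicates 1 to 4. Its groups did not overlap, as in 2.53% of all genes in this direction, at a log2 fold change of −0.25 (SE 0.09, edgeR FDR = 0.492). *Rhbdf1* and *Rhbdf2* encode iRhoms, which carry ADAM17 through its maturation. *Rhbdf1* was at 68.7 to 92.8 normalized CPM in the control-tagged and 63.3 to 66.3 in the mutant-tagged libraries, without overlap (log2 fold change −0.27, SE 0.10, edgeR FDR = 0.506). *Rhbdf2* was at 33.0 to 45.6 and 27.6 to 37.3 normalized CPM, with overlap (log2 fold change −0.36, SE 0.13, edgeR FDR = 0.476). The protease *Adam12* had a log2 fold change of −0.86 (SE 0.35, edgeR FDR = 0.521) on 13 to 94 reads. Without control-tagged replicate 2 or mutant-tagged replicate 2, the number of shedding genes at an unadjusted p under 0.05 was 2.

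Of 23 proximal signaling genes tested, 14 had a negative log2 fold change and the median was −0.02. At an unadjusted p under 0.05, *Pik3cb*, a catalytic subunit of PI3K, was lower (log2 fold change −0.28, SE 0.12) and the adaptor *Grb2* higher (0.25, SE 0.11) in the mutant-tagged libraries, with edgeR FDR = 0.534 and 0.556. *Grb2*, 1 of the 23, separated the groups, with 62.0 to 89.5 against 92.2 to 96.2 normalized CPM, as 2.46% of all genes tested did in this direction. Over all genes tested, 50.3% had a negative log2 fold change. At an unadjusted p under 0.05, 5.64% of them were lower and 3.32% higher.

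All 24 genes listed under receptor restraint were tested, 15 with a negative log2 fold change, against 50.3% of all genes tested, and a median of −0.07. *Ptprk*, a receptor phosphatase that acts on EGFR, had a log2 fold change of −0.35 (SE 0.12). Its groups did not overlap, with 30 to 39.4 against 21.9 to 27.6 normalized CPM, as in 2.53% of all genes in this direction. It was the 1 gene of the 24 without overlap. *Spry1* (−0.45, SE 0.17) and *Errfi1* (−0.47, SE 0.19), the feedback inhibitor of ErbB kinases also called MIG6, were lower on the log2 scale, and *Sh3kbp1*, an endocytic adaptor, was higher (0.31, SE 0.11). These 4 genes, 3 lower and 1 higher, were those at an unadjusted p under 0.05, where 5.64% and 3.32% of all genes tested were. Their FDR lay between 0.468 and 0.521 by edgeR's quasi-likelihood test.

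Of 13 response genes of the ERK pathway tested, 12 had a negative log2 fold change, against 50.3% of all genes tested, and the median was −0.12. *Spry2*, *Spry4* and *Spred1* stand in this list and in that of receptor restraint. *Etv4* (−0.97, SE 0.35) and *Ccnd1* (−0.27, SE 0.11) were lower and *Ier3* (0.51, SE 0.21) was higher on the log2 scale at an unadjusted p under 0.05. Over all genes tested, 5.64% were lower and 3.32% higher at that threshold. The FDR of *Etv4*, *Ccnd1* and *Ier3* ran from 0.486 to 0.521 by edgeR's quasi-likelihood test. *Dusp6*, a phosphatase induced by ERK, had a log2 fold change of −0.16 (SE 0.13) and *Egr1* one of −0.05 (SE 0.28).

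**Figure D5:**
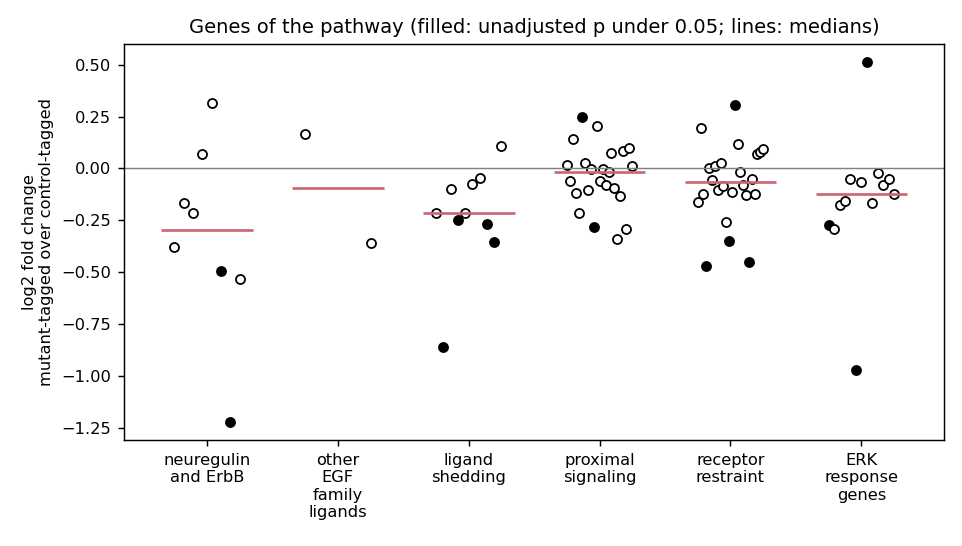
Log2 fold changes (mutant-tagged over control-tagged) of the tested genes of 6 lists, with 1 point per gene, filled at an unadjusted p under 0.05, and a red line at each median. Medians run from −0.30 for the neuregulin and ErbB genes to −0.02 for proximal signaling, and the shedding genes hold 4 filled points below 0.

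The genes most like each of the 8 tested genes were read from Pearson's r of log2 normalized CPM over the 8 libraries, among 13541 other genes. *Erbb4* ran closest to *Rbm20*, a splicing regulator of cardiomyocytes (r = 0.986), then *Naca* (0.974) and *Sbk1* (0.963). *Erbb2* was closest to *Arrb1* (r = 0.982), *Sept4* (0.965, listed in the table under a name changed to a date and identified by its gene ID) and *Cadm3* (0.961). *Erbb3* was closest to *Tmem74b* (r = 0.971), *Rita1* (0.966) and *Smim13* (0.961), and *Egfr* to *Csrp2* (0.973), *Acsl5* (0.965) and *Tnfaip6* (0.964). Of the ligands, *Hbegf* was closest to *Neurl1b* (r = 0.97), *Aldh1a3* (0.974) and *Pld2* (0.969), and *Nrg2* to *Mex3b* (0.963), *Ntf3* (0.960) and *1700030C10Rik* (0.941). *Nrg4* was close to *Zfp516* (r = 0.978) and *Plxna2* (0.970), and *Btc* was closest to *Phlpp2* (0.926), *Sertad1* (0.918) and *Cacna1d* (0.913). With 8 libraries and this many genes, values of this size are descriptions of these samples.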

How the data were processed

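The authors trimmed reads with Trim Galore 0.4.4, aligned them to GRCm38 with STAR 2.5.4b, counted them on GENCODE M16 genes with featureCounts and deposited 1 table of whole-number counts, not normalized. The labels describe depletion of ribosomal RNA and the methods poly-A selection. How strand and reads with several alignments were counted is not stated.

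The filter on low counts asked for 2 or more libraries with a CPM of 1 or more. Counts were normalized with TMM factors (0.917 to 1.12) and tested with the quasi-likelihood test of edgeR 4.0.16 in R 4.3.3, with Benjamini-Hochberg adjustment over all genes tested. At the depth of these libraries, low genes such as *Nrg1* and *Btc* carry large counting error. Log2 normalized CPM used a prior count of 2. Exon lengths and coordinates came from GENCODE M21 (GRCm38). DESeq2 1.42.0, other size factors, filters and thresholds, the replicate block and each library left out were alternatives. Nothing in the labels ties a library to a separate extraction, so p-values measure the spread between libraries. Fits were tested on simulated data.

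The genes and lists were chosen with earlier results of these data known. Named are all 9 genes, pathway list genes at an unadjusted p under 0.05 (at most 6 per list, or the lowest p), and the 3 most correlated genes per member. *Sox10*, *Pmp22*, *Dusp6*, *Egr1*, *Egf*, *Timp3*, *Lyz2*, *Cd3e*, the 4 endocardial markers, unexpressed ligands and genes held by 2 lists were named after their values were seen. Marker lists are otherwise given by sums, counts and medians, apart from the means of *Col1a1*, *Col1a2*, *Dcn*, *Pdgfra* and *Tcf21*, given after their values were seen. One of the correlated genes is not reported here.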

Additional observations from a re-analysis of the deposited data

How the results depend on the processing

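None of the neuregulin and ErbB genes was called under any of 18 alternatives (16 refits and 2 other thresholds). The 2 other thresholds were applied to the quasi-likelihood test only. By the likelihood ratio test *Hbegf* had an FDR of 0.0921, and only the fold threshold kept it from being called. The log2 fold changes of the 8 tested genes kept their sign in all 128 comparisons, 8 genes in 16 refits. Over all genes, the number called was 1, and it was 53 by the likelihood ratio test, 32 by DESeq2, 23 with no filter on low counts and from 1 to 3 with single libraries left out (2 without control-tagged replicate 1, 3 without replicate 2 or 4 of that group). The cause was not tested. The shedding genes lower at an unadjusted p under 0.05 numbered 2 to 4 with single libraries left out, a count made after seeing the data. The difference of the *Egfr* to *Erbb2* ratio, close to 0, ranged from −0.12 to 0.14 on the log2 scale and turned negative without control-tagged replicate 3 (−0.05) or 4 (−0.01) or mutant-tagged replicate 1 (−0.12) or 4 (−0.09). With the length of the longest transcript, the levels of *Nrg1*, *Nrg4* and *Hbegf* were 0.0435, 0.849 and 10.4 normalized CPM per kilobase. The deviations of same-numbered libraries from the group means correlated at −0.029, 0.029, 0.343 and −0.055. Between libraries of different numbers these correlations ran from −0.494 to 0.302. With 4 libraries per group, the values cannot tell whether same-numbered libraries share more than a number. With the replicate number as a block, 1 gene and 0 of the 8 were called, and the log2 fold change of *Hbegf* was −0.51. *Nrg1*, *Nrg2*, *Nrg4* and *Btc*, at 1 to 46 reads per library, are limited by depth.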
